A study of Mus musculus with 7 samples.

Results

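The genes described here mark or build blood vessels: 35 genes of endothelial cells, of the receptors and ligands that shape vessels, and of the mural cells (pericytes and smooth muscle) that wrap them. They were chosen by name as endothelial markers, angiogenic receptors and mural cell genes, out of 52740 gene identifiers in the table. All 35 were found and all 35 passed the filter on low counts, which left 16990 genes in the test. Their RNA was measured by RNA-seq in retinal pigment epithelium (RPE), the pigmented cell layer between photoreceptors and choroid. It was isolated from 24-month-old mice: 4 wildtype (WT) C57BL6/J mice (females F1, F2 and F3 and male M1) and 3 LC3b-/- mice (females F1 and F3 and a male, M). The LC3b-/- line, B6;129P2-Map1lc3b tm1Mrab/J, lacks in the germline the gene for LC3B, a protein of autophagosomes and of LC3-associated phagocytosis, so its vessel cells carry the deletion as well. The strain background differed with genotype, and so did the group numbers within the mouse names, whose meaning the labels do not give; neither can be told apart from the deletion.

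The choroid is the vascular bed beneath the RPE and feeds the outer retina. Its innermost layer, the choriocapillaris, is a sheet of wide fenestrated capillaries, whose pores are closed by diaphragms built from PLVAP. RPE cells secrete VEGF-A towards it, and endothelial cells read VEGF through the receptors KDR (VEGFR2) and FLT1 (VEGFR1), with neuropilins as co-receptors. A second system, angiopoietin acting on the receptor TEK (TIE2), steadies vessels, and endothelial PDGF-B holds pericytes through PDGFRB. RPE cells themselves are not known for von Willebrand factor, PECAM1 or PLVAP, and the isolation started from RPE with choroid attached, from which sheets of RPE were shaken loose after trypsin.

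The sequences in front of the start sites are given because endothelial genes are known to share binding sites of ETS factors, such as the member Erg and Fli1, often joined to a forkhead site. The letters CAGGAAG, an ETS site, were found on either strand of the 250 bases before the start of 9 of the 35 members (25.7%). They occurred in 9.67% of the 14928 tested protein-coding genes with such a window. The joined forkhead and ETS letters AACAGGAA, which can overlap the first motif, were in 3 members (8.57%) and in 1.8% of the tested genes. The SOX letters ACAATG were in 6 members (17.1%) against 6.79%. By contrast the GC box GGGCGG was in 45.7% of members against 47.1%, and TATAAA in 8.57% against 7.56%, so these general promoter letters were about as common in vessel genes as elsewhere. In 13 members the window also holds bases of an annotated exon. Among them are the ETS carriers Mmrn2, Rasip1 and Sox17 (all 250 bases each), Icam2 (127 bases) and Erg (10 bases). Exon bases in the windows of the other tested genes were not counted. The median GC content of the windows was 56.8% for members and 56.4% for tested genes. A match is only a match of letters, and several members lie in the same pathway, so these shares carry no test. The 4 windows shown here hold no annotated exon, are read 5′ to 3′ on the gene's strand of GRCm39, and end at the base before the canonical start. They are those of the ETS or forkhead and ETS carriers Vwf (chr6:125529661-125529910, plus strand) and Emcn (chr3:137046544-137046793, plus strand), and, as members without these letters, of Plvap (chr8:71964507-71964756, minus strand) and Nos3 (chr5:24569537-24569786, plus strand). Capitals mark only the matches of these ETS and joined forkhead and ETS letters, and SOX letters and GC boxes stay in lower case. The capitals lay 41 bases before the start in Vwf; in Emcn both motifs overlap about 128 bases before it.
Vwf: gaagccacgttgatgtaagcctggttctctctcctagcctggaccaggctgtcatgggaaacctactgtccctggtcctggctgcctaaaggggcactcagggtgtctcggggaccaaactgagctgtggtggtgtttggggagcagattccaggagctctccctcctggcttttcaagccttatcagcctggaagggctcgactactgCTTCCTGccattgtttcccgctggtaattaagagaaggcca
Emcn: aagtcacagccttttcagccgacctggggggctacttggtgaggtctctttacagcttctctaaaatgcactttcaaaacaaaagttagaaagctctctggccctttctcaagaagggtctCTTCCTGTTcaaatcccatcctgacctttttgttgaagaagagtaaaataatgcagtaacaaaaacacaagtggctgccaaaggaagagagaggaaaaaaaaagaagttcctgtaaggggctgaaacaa
Plvap: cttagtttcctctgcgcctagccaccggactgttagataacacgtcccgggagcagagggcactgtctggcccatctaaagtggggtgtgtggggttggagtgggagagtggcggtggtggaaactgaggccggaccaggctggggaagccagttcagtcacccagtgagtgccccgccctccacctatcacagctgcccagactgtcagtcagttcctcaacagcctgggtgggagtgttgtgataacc
Nos3: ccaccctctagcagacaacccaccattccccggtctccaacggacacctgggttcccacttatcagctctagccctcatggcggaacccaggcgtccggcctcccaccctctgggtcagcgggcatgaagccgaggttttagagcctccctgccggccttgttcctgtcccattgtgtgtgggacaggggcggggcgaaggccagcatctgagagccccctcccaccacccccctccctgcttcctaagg

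The libraries held 24495952 to 35616134 estimated counts. Levels are given in CPM, counts scaled to a common library total, here with edgeR's TMM factors. Map1lc3b, the deleted gene, stood at 104 to 130 CPM in WT and at 6.76 to 8.33 CPM in LC3b-/-, a log2 fold change of -3.98 with a standard error of 0.15 (edgeR adjusted p = 0.0001862), so every library matched its label. Libraries differed in RNA of other cells: photoreceptor markers summed to 21988 CPM in WT F2 and to 109 CPM in LC3b-/- F1, and keratin-led ocular surface markers to 23514 CPM in LC3b-/- F1 and to 11.3 CPM in WT F3. The vessel genes set WT F3 and WT M1 apart from WT F1 and WT F2, as described next. Nothing in the labels says whether vessels were perfused or how much choroid each preparation kept.

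Vessel RNA was higher in LC3b-/- libraries for 34 of 35 members, against 51.2% of all genes tested, with a median log2 fold change of 0.89. No member passed the threshold of edgeR's quasi-likelihood test (adjusted p below 0.05 over all genes tested, and at least 1.5-fold), which called 0.235% of all genes. Before adjustment 13 members were higher with p under 0.05 (37.1%, against 13.5% of all genes tested) and 1 was lower (2.86%, against 10.6%). By DESeq2, the tool named in the study's methods, 7 members passed the same threshold, all higher (20%, against 7.09% of all genes called higher and 3.63% called lower): Pecam1, Ocln, Mmrn2, Nos3, Rasip1, Sox17 and Notch3. In 17 members all 3 LC3b-/- libraries lay above all 4 WT libraries (48.6%, against 12.0% of all genes), and in none did they all lie below (10.3% of all genes). With bulk RNA, more vessel cells per library and more of these RNAs per cell cannot be told apart.

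The WT group was not uniform in these genes, an order that was noticed after the values were seen. In 32 of 35 members both WT F1 and WT F2 lay above both WT F3 and WT M1, an order held by 23.7% of all genes tested. In 34 of 35 members, all but Cspg4, all 3 LC3b-/- libraries lay above WT F3 and WT M1, which was so for 27.8% of all genes. The highest LC3b-/- library was M in 15 members, F3 in 14 and F1 in 6. In the order F1, F2, F3, M1 for WT and F1, F3, M for LC3b-/-, which holds for all lists of values here, the 35 genes summed to 2931, 2402, 1210 and 906 CPM, and to 3356, 3334 and 3273 CPM. The WT libraries thus spread more widely than the knockouts. The number of members with p under 0.05 moved from 14 to 24 without WT F1, to 6 without WT F3, to 7 without LC3b-/- F1 or M, and to 4 without LC3b-/- F3, while the median log2 fold change stayed between 0.65 (without WT M1) and 1.21 (without WT F1).

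**Figure D1:**
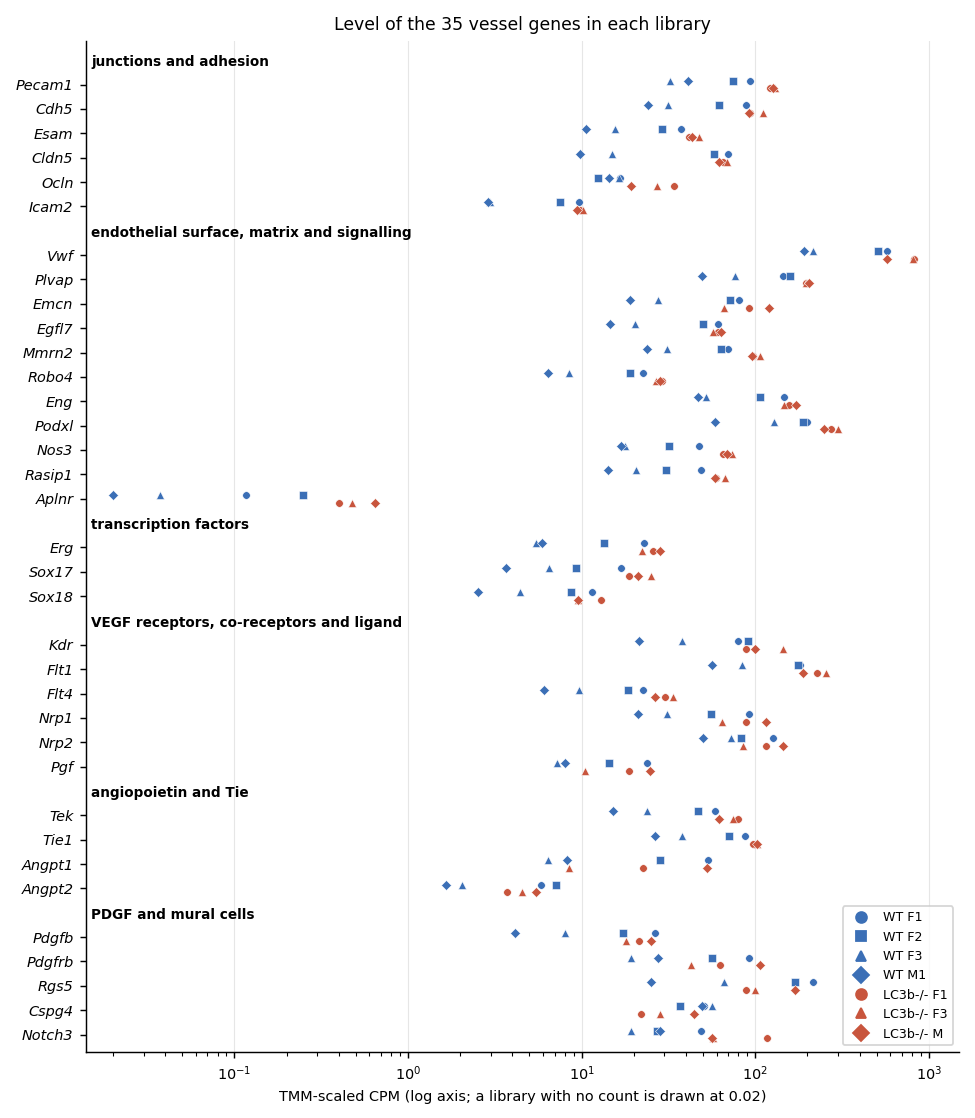
TMM-scaled CPM (log axis) of each of the 35 vessel genes, grouped by role, in the 4 WT (blue) and 3 LC3b-/- (red) libraries; each symbol is 1 library. Reading along a row, WT F3 and WT M1 sit at the left in most genes, and the red points lie to the right of all blue points in 17 genes.

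The 3 genes that mark endothelium were all present at well over the filter. Pecam1 (ENSMUSG00000020717, chr11:106543689-106641454), the CD31 adhesion molecule of endothelial contacts, measured 93.2, 74.9, 32.5 and 41.1 CPM in WT and 122, 130 and 127 CPM in LC3b-/-. The groups did not overlap, and the knockout libraries lay close together. Its log2 fold change was 1.06 with a standard error of 0.35 (edgeR adjusted p = 0.139; DESeq2 adjusted p = 0.0351). Vwf (ENSMUSG00000001930, chr6:125523737-125663642), the clotting and platelet adhesion factor stored in endothelial granules, measured 578, 508, 215 and 192 CPM in WT and 820, 816 and 575 CPM in LC3b-/-. LC3b-/- M lay just below WT F1, so the groups met at that point. The log2 fold change was 0.98 with a standard error of 0.42 (edgeR adjusted p = 0.209). Plvap (ENSMUSG00000034845, chr8:71948674-71964506), the fenestral diaphragm protein, measured 144, 158, 76.8 and 49.3 CPM in WT and 197, 195 and 203 CPM in LC3b-/-, without overlap. Its log2 fold change was 0.89 with a standard error of 0.38 (edgeR adjusted p = 0.205).

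Among the genes of junctions and adhesion, all 6 were higher in LC3b-/- libraries and 4 did not overlap between genotypes. Of all genes tested, 12.0% were higher without overlap. Cdh5, the VE-cadherin of adherens junctions, measured 88.6, 61.5, 31.6 and 24 CPM in WT and 93.1, 110 and 92.3 CPM in LC3b-/-. Esam, a tight junction adhesion molecule, measured 37.5, 29.1, 15.5 and 10.6 CPM in WT and 41.8, 47.7 and 43.4 CPM in LC3b-/-. Both showed the WT order described above, and their log2 fold changes of 0.94 and 0.93 had edgeR adjusted p-values of 0.223 and 0.207. Ocln behaved otherwise. Occludin, a tight junction protein of epithelia as well as endothelia, measured 16.7, 12.5, 16.5 and 14.4 CPM in WT and 34, 27.3 and 19.2 CPM in LC3b-/-. Its WT libraries were close together. The knockout libraries fell in the order of their summed ocular surface markers, 23514 CPM in F1, 6281 in F3 and 3299 in M. In WT these sums were 857, 615, 11.3 and 2422 CPM, and Ocln did not follow their order. The part of that RNA in the Ocln value was not tested. Its log2 fold change of 0.83 (standard error 0.21) had the smallest edgeR p of all members (adjusted p = 0.0982), and in the exact two-sided permutation test over samples p was 0.0286, the smallest that this design can give. Without LC3b-/- M the adjusted p of Ocln was 0.0436, which passed the threshold. Cldn5, the claudin of endothelial tight junctions, averaged 38.2 ± 30.2 CPM in WT (SD, n = 4) and 65.4 ± 3.19 CPM in LC3b-/- (SD, n = 3), and ranged from 9.84 CPM in WT M1 to 69.7 CPM in WT F1, the highest of all 7 libraries. Icam2, an endothelial ligand of leukocyte integrins, averaged 5.76 ± 3.41 and 9.79 ± 0.356 CPM, again with WT F1 inside the knockout range.

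The 11 genes of the endothelial surface, matrix and signalling were all higher in LC3b-/- libraries. In 7 of them the genotypes did not overlap, against 12.0% of all genes in this direction. Nos3 (ENSMUSG00000028978, chr5:24569787-24589475), the endothelial nitric oxide synthase, measured 47.7, 31.7, 17.7 and 17 CPM in WT and 64.8, 73.8 and 68.8 CPM in LC3b-/-. The lowest knockout library lay above the highest WT library by more than the knockouts differed among themselves. Its log2 fold change was 1.28 with a standard error of 0.36 (edgeR adjusted p = 0.11; DESeq2 adjusted p = 0.00978), and the edgeR value was 0.0485 without WT F1. Mmrn2, multimerin of the endothelial matrix, measured 69.7, 63.2, 31.2 and 23.8 CPM in WT and 97.7, 106 and 96.4 CPM in LC3b-/-. Rasip1, a Ras-interacting protein needed for vessel lumens, measured 48.6, 30.6, 20.6 and 14.3 CPM in WT and 59.6, 66.9 and 59 CPM in LC3b-/-. For both the DESeq2 adjusted p passed 0.05 (0.0369 and 0.0351), while the edgeR values were 0.144 and 0.145. The guidance receptor Robo4 measured 22.5, 19, 8.42 and 6.38 CPM in WT and 29, 26.9 and 28.2 CPM in LC3b-/-. Podxl, podocalyxin of the luminal coat, measured 199, 189, 129 and 58.5 CPM in WT and 272, 299 and 250 CPM in LC3b-/-. In these genes too WT M1 was lowest and WT F3 next, and the log2 fold changes were 0.99 and 0.93.

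Aplnr, the apelin receptor, was the scarcest member, with 4, 6, 1 and 0 counts in WT and 10, 19 and 22 counts in LC3b-/-. Its fitted log2 fold change of 2.31 (standard error 0.88, edgeR adjusted p = 0.168) rests on these few counts and on how the fit treats a library with none. The remaining members of this role were higher in the mean but met the highest WT libraries. The sialomucin Emcn averaged 49.7 ± 30.9 CPM in WT (SD, n = 4) and 92.4 ± 26.8 CPM in LC3b-/- (SD, n = 3). Egfl7, a secreted endothelial factor, averaged 36.5 ± 22.5 and 60.4 ± 3.22 CPM. Eng, endoglin, a co-receptor of the TGF-beta family, averaged 88.2 ± 47.9 and 159 ± 13.2 CPM. None of these differences passed either test, and their edgeR adjusted p-values were 0.319, 0.376 and 0.239.

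All 3 endothelial transcription factors were higher in LC3b-/- libraries, and 1 did not overlap (against 12.0% of all genes in this direction), too few genes to say more. Sox17, a factor of arterial endothelium, measured 16.8, 9.24, 6.52 and 3.69 CPM in WT and 18.8, 25.2 and 21.1 CPM in LC3b-/-. Its log2 fold change was 1.26 with a standard error of 0.45, and the adjusted p was 0.16 by edgeR and 0.0486 by DESeq2. Erg, the ETS factor that maintains endothelial identity, averaged 11.9 ± 8.12 CPM in WT (SD, n = 4) and 25.4 ± 3.03 CPM in LC3b-/- (SD, n = 3). Only WT F1, at 22.8 CPM, reached the lowest knockout library, LC3b-/- F3 at 22.2 CPM. Sox18 averaged 6.8 ± 4.07 and 10.7 ± 1.99 CPM and overlapped more widely (log2 fold change 0.65, edgeR adjusted p = 0.437).

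In the VEGF receptors too, WT F1 and WT F2 lay above WT F3 and WT M1. Kdr, the main signalling receptor for VEGF-A, measured 80, 90.4, 37.9 and 21.3 CPM in WT and 88.5, 144 and 99.7 CPM in LC3b-/-. WT F2 lay just above LC3b-/- F1, and the log2 fold change was 0.95 with a standard error of 0.48 (edgeR adjusted p = 0.265). Flt1, which binds VEGF-A and PlGF tightly and signals weakly, measured 181, 176, 84.4 and 56.2 CPM in WT and 226, 254 and 189 CPM in LC3b-/-. It did not overlap, at a log2 fold change of 0.84 (edgeR adjusted p = 0.247). Flt4, the receptor of VEGF-C and VEGF-D, measured 22.7, 18.6, 9.7 and 6.04 CPM in WT and 30.1, 33.7 and 26.6 CPM in LC3b-/-. It did not overlap either, at a log2 fold change of 1.08 with a standard error of 0.42 (edgeR adjusted p = 0.179). The ratio of Kdr to Flt1 was 0.446 ± 0.0554 in WT (SD, n = 4) and 0.495 ± 0.0915 in LC3b-/- (SD, n = 3), and its libraries overlapped. The co-receptors Nrp1 and Nrp2 averaged 50 ± 31.5 and 83.1 ± 32.5 CPM in WT and 89.3 ± 25.1 and 115 ± 29.7 CPM in LC3b-/-, with LC3b-/- M highest and WT F1 second in both. Pgf, the ligand PlGF of Flt1, measured 23.9, 14.4, 7.26 and 8.03 CPM in WT and 18.8, 10.4 and 24.7 CPM in LC3b-/-. The genotypes were interleaved in Pgf, whose log2 fold change of 0.42 (standard error 0.47) turned to -0.066 in the females alone.

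The angiopoietin system holds a pair of receptors and a pair of ligands, none of which passed the test. Tek, which binds the angiopoietins, measured 58.7, 46.9, 23.7 and 15.2 CPM in WT and 79.9, 74.7 and 61.8 CPM in LC3b-/-. Tie1, its partner receptor, measured 86.9, 71.1, 38.1 and 26.5 CPM in WT and 97.6, 103 and 102 CPM in LC3b-/-. Neither overlapped between genotypes, and the log2 fold changes were 1.00 and 0.86 (edgeR adjusted p = 0.209 and 0.219). Angpt1, the stabilising ligand that mural and stromal cells make, measured 53.8, 28.3, 6.37 and 8.23 CPM in WT and 22.7, 8.43 and 52.8 CPM in LC3b-/-. WT F1 and LC3b-/- M were both high and far from the other females, and the log2 fold change of 0.21 had a standard error of 0.85. Angpt2, the endothelial ligand that opposes it, measured 5.85, 7.13, 2.06 and 1.65 CPM in WT and 3.7, 4.56 and 5.49 CPM in LC3b-/-, so that all 3 knockouts lay between the WT pairs. The signs of both ligand differences turned when WT F3, WT M1 or LC3b-/- M was left out, to as low as -0.64 for Angpt1 and -0.13 for Angpt2. Whether the receptors and ligands differ in their response was not tested.

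Of the 5 genes of PDGF signalling and mural cells, 4 had estimates above 0 and 1 below, and none passed the test. Pdgfb, the endothelial signal to pericytes, measured 26.5, 17.4, 8.01 and 4.15 CPM in WT and 21.4, 18.1 and 25 CPM in LC3b-/-. Its receptor Pdgfrb, on pericytes and fibroblasts, measured 92.5, 56.1, 19.3 and 27.6 CPM in WT and 62.8, 42.5 and 107 CPM in LC3b-/-, with LC3b-/- M and WT F1 highest as for Angpt1. Rgs5, a regulator of G protein signalling abundant in pericytes, averaged 119 ± 88.2 CPM in WT (SD, n = 4) and 120 ± 44.3 CPM in LC3b-/- (SD, n = 3), a log2 fold change of 0.01 with a standard error of 0.66. Its highest library was WT F1 at 215 CPM and its lowest WT M1 at 25.2 CPM. Cspg4, the NG2 proteoglycan of pericytes and also of glial precursors and other cells, was the only member lower in LC3b-/-. It measured 50.6, 36.8, 56.2 and 49.3 CPM in WT and 22.1, 28.3 and 44.2 CPM in LC3b-/-, and only LC3b-/- M reached the WT range. Its log2 fold change was -0.61 with a standard error of 0.26 (edgeR adjusted p = 0.2). Notch3, the Notch receptor of vascular smooth muscle, measured 48.8, 27.3, 19.1 and 28.3 CPM in WT and 117, 57.1 and 56.3 CPM in LC3b-/-. The genotypes did not overlap, LC3b-/- F1 stood well above the other libraries, and the log2 fold change was 1.31 with a standard error of 0.37 (edgeR adjusted p = 0.113; DESeq2 adjusted p = 0.0122). Stratified epithelia also make Notch3, and LC3b-/- F1 was the library with most keratin RNA; the part of that RNA in the Notch3 value was not tested.

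**Figure D2:**
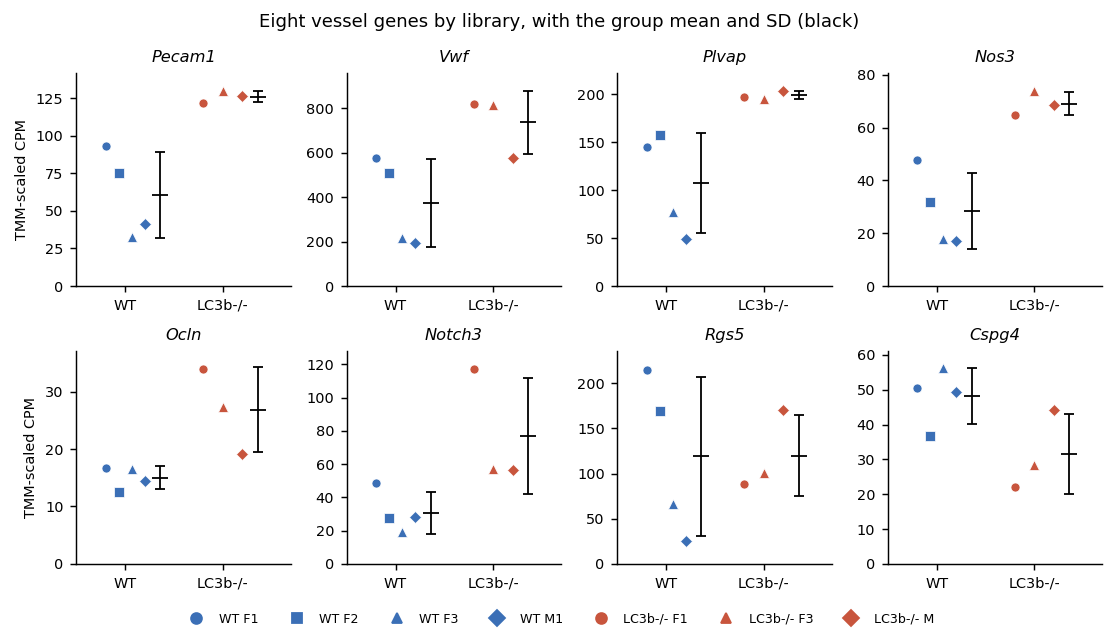
TMM-scaled CPM (linear axis from 0) of 8 vessel genes in each library, with the group mean and SD in black; WT n = 4, LC3b-/- n = 3. Pecam1, Plvap, Nos3, Ocln and Notch3 do not overlap between genotypes, Vwf meets at LC3b-/- M, Rgs5 has equal means, and Cspg4 is lower in the mean of LC3b-/-.

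**Figure D3:**
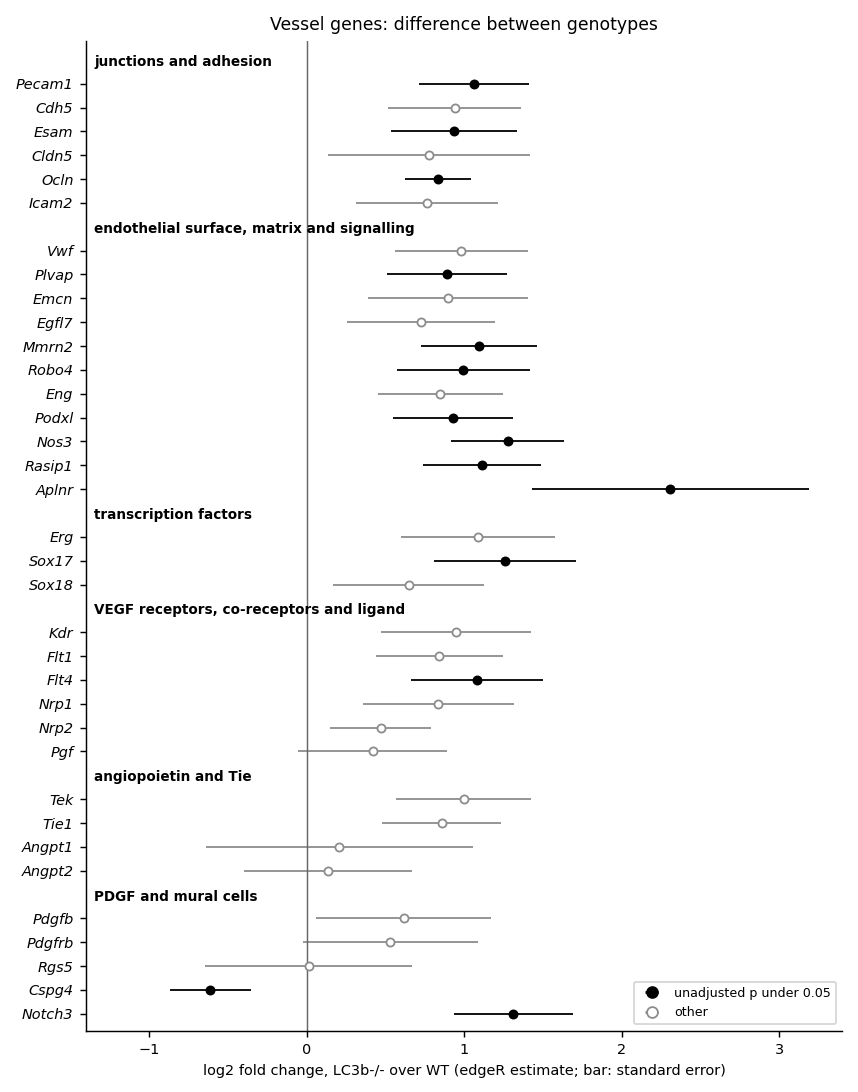
The edgeR log2 fold change (LC3b-/- over WT) of each of the 35 members with its standard error, grouped by role; filled points have an unadjusted p under 0.05. Points lie right of 0 in 34 members, most between about 0.4 and 1.3, with Aplnr at 2.31 on few counts and Cspg4 at -0.61.

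To compare levels between genes, CPM was divided by the length of the canonical transcript in kilobases. By this scale Plvap was the most abundant member in WT at 51.1 CPM per kb and Vwf the next at 42.3, followed by Rgs5 at 28.8, Cldn5 at 27, Podxl at 26.7, Eng at 25.3 and Egfl7 at 25. The levels from Rgs5 to Egfl7 differed by less than the spread of each among the WT libraries, where the SD of Cldn5, for example, was 30.2 CPM about a mean of 38.2 CPM. The scarcest were Aplnr at 0.0272, Icam2 at 0.893 and Angpt2 at 0.895 CPM per kb, and the transcription factors lay between 2.89 (Sox17) and 4.18 (Sox18). In LC3b-/- libraries Plvap and Vwf again led, at 94.7 and 83.4 CPM per kb, and Flt1 (32.3) stood above Kdr (18.7) as it did in WT (18 and 9.69). Canonical lengths are one choice of isoform, so levels of genes with long alternative ends, such as Icam2, are less sure than their differences.

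Members were then expressed relative to Pecam1 in the same library, which asks whether they moved together. For 29 of the 34 others the highest library exceeded the lowest by a smaller factor after this division than before, which was so for 19.9% of the 16394 genes with a count in every library. For 16 members the ratio to Pecam1 varied by less than 2-fold over all 7 libraries, although no member's own level did. Among all genes 2.98% had so steady a ratio, and 48.1% had so steady a level. Nos3 was the steadiest, at 1.38-fold relative to Pecam1 against 4.35-fold as a level, followed by Eng (1.41-fold), Vwf and Icam2 (both 1.49-fold). The exceptions were Ocln, Nrp2, Angpt1 and Cspg4, whose ratios varied more than their levels, and Aplnr, which had no count in WT M1. Relative to Pecam1 no member was higher in LC3b-/- without overlap. Pecam1 was itself higher without overlap, at a log2 fold change of 1.06 against the member median of 0.89. Division by it therefore lowers such ratios, and the share among all genes was not computed, so this count says little about the members. Plvap was 1.81 ± 0.529 in WT (SD, n = 4) and 1.58 ± 0.061 in LC3b-/- (SD, n = 3). Vwf ran from 4.66 to 6.79 in WT and from 4.54 to 6.72 in LC3b-/-. Cspg4 alone no longer overlapped, at 0.991 ± 0.589 in WT and 0.25 ± 0.0885 in LC3b-/-. These ratios share Pecam1 and the libraries, and they are a description.

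**Figure D4:**
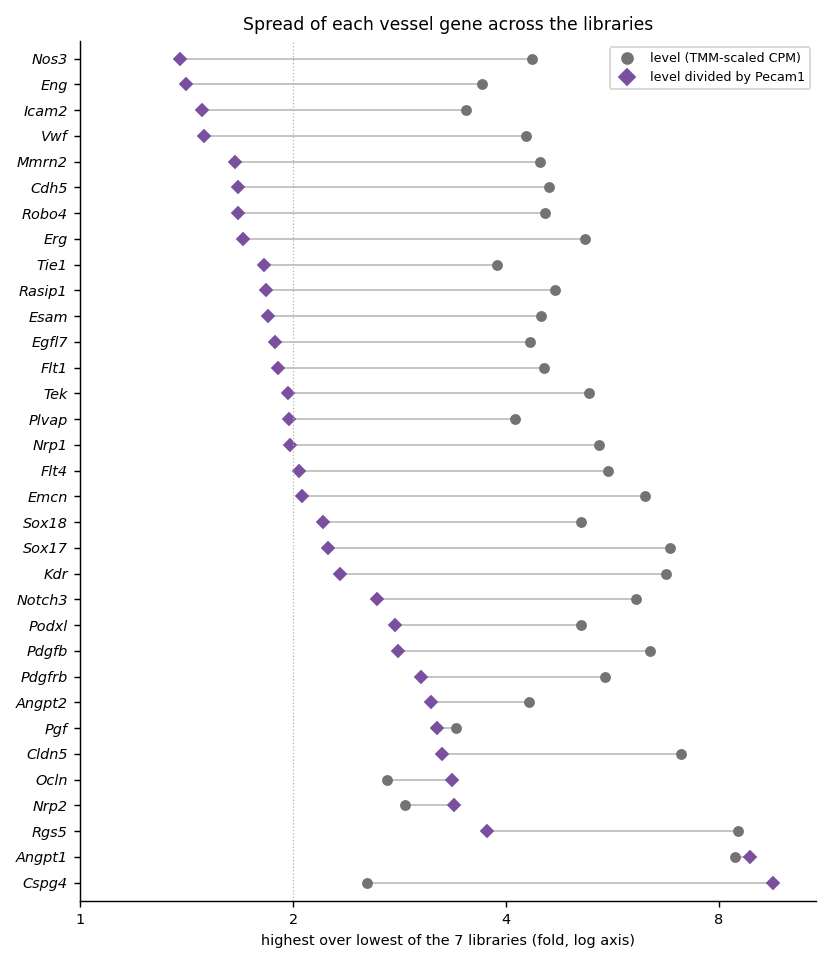
For each member with a count in every library, the highest divided by the lowest of the 7 libraries (fold, log axis), as a level (grey circles) and after division by Pecam1 (purple diamonds). The diamonds lie left of the circles in 29 genes and left of 2-fold in 16; Ocln, Nrp2, Angpt1 and Cspg4 are the reverse.

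Genes of vessels outside the 35 were taken from lists by role. Among 33 further endothelial genes, 31 were higher in LC3b-/-, against 51.2% of all genes. Of the 33, 13 were higher with an unadjusted edgeR p under 0.05 and 1 was lower, against 13.5% and 10.6% of all genes. None was called by edgeR, and DESeq2 called 3 higher and 1 lower, against 7.09% and 3.63%. Adgrf5 measured 131, 98.4, 54.5 and 41.6 CPM in WT and 155, 170 and 152 CPM in LC3b-/-, without overlap. Ramp2, an accessory protein of the adrenomedullin receptor that other cells make too, went the other way, at 121, 122, 135 and 154 CPM in WT and 69.8, 44.3 and 85.6 CPM in LC3b-/-, a log2 fold change of -0.995 (edgeR adjusted p = 0.0945). All 8 arterial genes were higher, with a median log2 fold change of 1.24 against 0.68 for the 7 venous and activation genes, all higher too; the difference between these lists was not tested. Bmx, an arterial kinase, had a log2 fold change of 1.48 (edgeR adjusted p = 0.111), and the adhesion receptors Selp and Sele of activated endothelium 1.34 and 0.96 (edgeR adjusted p = 0.0915 and 0.104). Of 11 genes of fenestrated and tip endothelium 8 were higher, among them Igfbp3, at 14.5 to 81.6 CPM in WT and 144 to 168 CPM in LC3b-/- (edgeR adjusted p = 0.136).

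Barrier endothelium was a mixed list, with 9 of 15 genes higher and 6 lower. Those lower were led by transporters: Slco1c1, a thyroid hormone and organic anion carrier, measured 251 to 496 CPM in WT and 62.3 to 139 CPM in LC3b-/-, which is -1.97 on the log2 scale (edgeR adjusted p = 0.0897), and Slc2a1, the GLUT1 glucose carrier that RPE makes in quantity, averaged 1562 and 941 CPM. Marveld2, tricellulin of tight junctions at cell corners, had a log2 fold change of 2.27 (edgeR adjusted p = 0.0889), with LC3b-/- F1 highest as for Ocln. Among 16 tested genes of pericytes and smooth muscle 10 were higher and 6 lower. Anpep and Acta2 had log2 fold changes of 1.49 and 0.76 (edgeR adjusted p = 0.0967 and 0.119), whereas Kcnj8, Myh11 and Tagln lay at 0.02, -0.15 and -0.17. Of 6 lymphatic markers 5 were higher and 1 lower, with log2 fold changes from -0.587 to 1.79. In each direction 1 had an unadjusted edgeR p under 0.05 (against 13.5% of all genes higher and 10.6% lower). DESeq2 called 1 in each direction (against 7.09% and 3.63%). Lyve1 and Prox1 were scarce: Lyve1 averaged 1.77 CPM in WT and 2.17 in LC3b-/-, and Prox1 3.2 and 4.88. The 6 markers together summed to 610 to 867 CPM in WT and 516 to 636 CPM in LC3b-/-, so other markers held most of that RNA.

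The ligands that act on these receptors were split in direction. Of 28 tested angiogenic ligands and inhibitors, 17 were higher and 11 lower in LC3b-/-. Vegfa, which RPE supplies to the choroid, averaged 347 CPM in WT and 234 CPM in LC3b-/-, with overlap; the difference was -0.57 on the log2 scale (edgeR adjusted p = 0.279). Of the 28, 6 were higher and 3 lower without overlap, against 12.0% and 10.3% of all genes, so the lower count was near that share. The 3 lower were Vegfb, Sema3c and Bmp4, with log2 fold changes of -0.47, -1.27 and -0.75 (edgeR adjusted p = 0.108, 0.117 and 0.112). The Notch ligand Jag1 was higher in all knockouts, at 43.2 to 51.6 CPM in WT and 71.1 to 84.9 CPM in LC3b-/-, and its edgeR adjusted p of 0.058 was the smallest of the 230 accompanying genes tested. Jag2 and Dll4 had log2 fold changes of 1.52 and 1.17, and the receptor Notch1 of 0.82 (edgeR adjusted p = 0.096, 0.247 and 0.0945). Of the 15 Notch, ephrin and guidance receptors tested, 14 were higher. Hypoxia response genes were mixed, 10 of 15 higher and 5 lower, with log2 fold changes of 1.33 for Pfkfb3 and -0.55 for Egln1 (edgeR adjusted p = 0.105 and 0.0906). Across all these lists and those that follow no gene was called by edgeR; 58 of 230 were higher (25.2%, against 13.5% of all genes) and 20 lower (8.7%, against 10.6%) with an unadjusted p under 0.05. DESeq2 called 33 higher (14.3%, against 7.09%) and 15 lower (6.52%, against 3.63%).

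Marker lists of other cell types differed between libraries. The sums of RPE, ocular surface and platelet markers did not overlap between genotypes, those of platelets at low levels. The part of these lists in the vessel result was not tested. RPE markers summed to 32327 to 50814 CPM in WT and 14629 to 30294 CPM in LC3b-/-, with 13 of 15 lower. Of these, 8 had an unadjusted edgeR p under 0.05, against 10.6% of all genes in that direction. DESeq2 called 7 of the 15 lower, against 3.63% of all genes. WT M1 and WT F3, lowest in vessel RNA, held the most RPE RNA. Fibroblast markers summed to 797 to 2048 CPM in WT and 1464 to 2319 CPM in LC3b-/-, 9 of 11 higher and none with p under 0.05; Dcn measured 519, 345, 144 and 180 CPM in WT and 505, 303 and 716 CPM in LC3b-/-, with LC3b-/- M and WT F1 highest as for Pdgfrb and Angpt1. All 11 ocular surface markers were higher, summing to 11.3 to 2422 CPM in WT and 3299 to 23514 CPM in LC3b-/-. Of them 8 had an unadjusted edgeR p under 0.05, against 13.5% of all genes in that direction. DESeq2 called 7 higher, against 7.09% of all genes. Macrophage markers summed to 613 to 820 CPM in WT and 738 to 1443 CPM in LC3b-/- (7 of 13 higher). Erythrocyte markers, which would come with blood in the vessels, summed to 182 to 542 CPM in WT and 216 to 662 CPM in LC3b-/-, with WT F1, the WT library richest in vessel RNA, holding least. Platelet markers, of which 2 of 7 were tested, summed to 3.82 to 6.34 and 6.97 to 15.1 CPM, and the defining platelet genes Gp9 and Gp6 had at most 2 and 6 counts in any library. All 15 photoreceptor markers, 3 of 4 of Mueller glia and 5 of 6 of choroidal melanocytes were lower in the estimate, and all 6 of skeletal muscle were higher. Of these 4 lists only Kit, the 1 melanocyte marker that was higher in LC3b-/- (log2 fold change 1.45), did not overlap between genotypes.

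**Figure D5:**
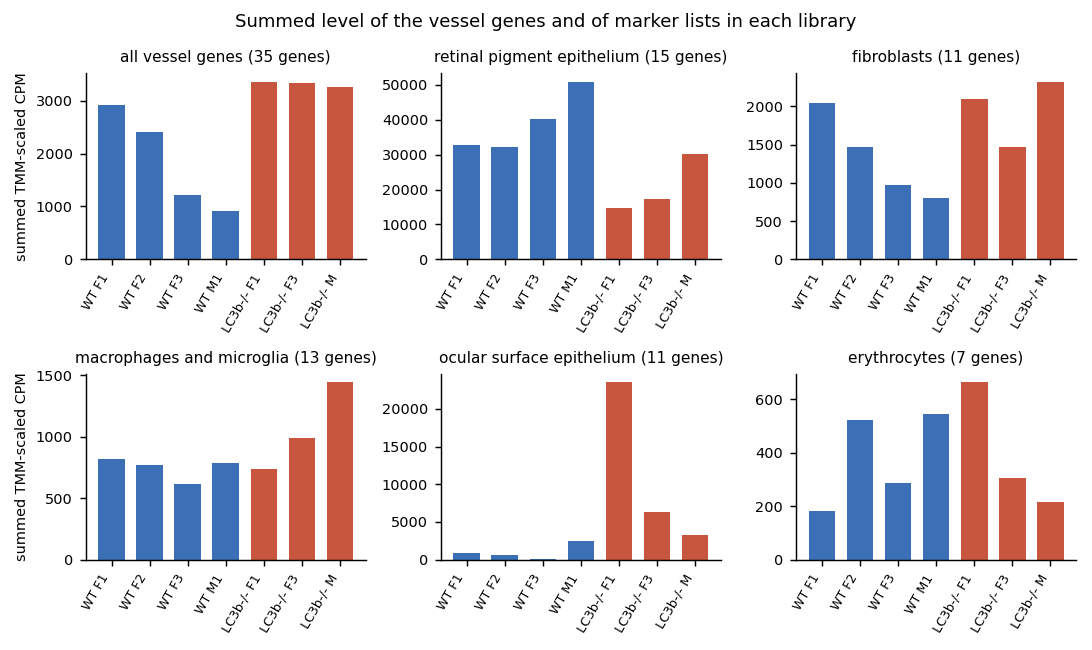
Summed TMM-scaled CPM (linear axis from 0; each panel has its own scale) of the 35 vessel genes and of 5 marker lists in each library, WT in blue and LC3b-/- in red. WT F3 and WT M1 are lowest in vessel sums and highest in RPE sums among WT, fibroblast sums follow vessel sums in WT, and the ocular surface sum is highest in LC3b-/- F1.

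Some members share transcribed bases with neighbours, and whether counting used the strand is not given in the sources used here, although the library kit was stranded. On the opposite strand Angpt2 overlaps Mcph1, Icam2 overlaps Prr29, Nos3 overlaps Atg9b, Mmrn2 overlaps Sncg and Notch3 overlaps Gm17276. Angpt1 likewise overlaps Gm17473 (821 bases) and Sox18 overlaps Gm74574 (413 bases). Nrp1, Nrp2, Rasip1 and Tie1 overlap long noncoding RNAs there over shorter stretches. On the same strand Rasip1 shares 552 bases with Izumo1, and Egfl7 shares 138 bases with Gm20532. Their values are less sure for that reason, and Ocln holds short stretches found in other transcripts.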

How the data were processed

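RNA-seq was analysed from RPE of 4 WT and 3 LC3b-/- mice. The deposited table holds estimated counts per gene in whole numbers, which the authors made with salmon (version 1.9.0) against GENCODE vM26 transcripts on GRCm39 and summed to genes with tximeta (version 1.16.1); rounding is not described. Nothing says which libraries shared a preparation day, and n counts mice. Of 52740 identifiers, 51721 matched the GENCODE vM39 annotation of the same build; the rest stayed in library totals (0.032% to 0.0436% of counts) and in the test under their identifiers. The 24495952 to 35616134 counts per library set the counting precision, which is lowest for Aplnr.

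Genes were filtered with filterByExpr, scaled by TMM and tested with the quasi-likelihood test of edgeR (version 4.0.16; biological coefficient of variation 0.398) on R (version 4.3.3), with Benjamini-Hochberg adjustment over 16990 genes. A gene was called at an adjusted p below 0.05 and a fold change of at least 1.5. Log2 CPM for the permutation test used a prior count of 2. Alternatives were DESeq2 (version 1.42.0), limma voom with quality weights (version 3.58.1), other scalings and filters, sex as a covariate, females only, a replicate block, division by summed RPE markers and leaving out each library. The code was tested on simulated counts. Shared transcript stretches (at least 95% identity over 100 bases) were searched with BLAST+ (version 2.17.0). The exon-free windows printed were chosen from the markers, the ETS carriers and the members of smallest p. Some windows are not reported here.

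All 35 members were to be accounted for. Values in every library were given for Pecam1, Vwf, Plvap, Kdr, Flt1, Tek, Angpt1, Angpt2, Pgf, Pdgfb and Pdgfrb, and for members called, with an unadjusted p under 0.05 or without overlap; of other lists, the genes called or of smallest p and the most abundant were eligible. Members and lists were chosen with earlier results of these data known.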

Additional observations from a re-analysis of the deposited data

How the results depend on the processing

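Direction held for all 35 members under DESeq2, voom, both other scalings, sex as a covariate and the replicate block. With the filter at 10 counts in every library 34 members remained testable, all with the same sign. The number of members called, 0 in the edgeR test, was 7 by DESeq2, and 0 to 1 when each library was left out (Nos3 without WT F1, Ocln without LC3b-/- M). It stayed 0 with no minimum fold change, at 2-fold and by voom. The number with p under 0.05, 14, was 22 by DESeq2, 23 by voom, 8 in females only and 22 with the replicate block, and 4 to 24 when each library was left out. The accompanying genes called, 0 of 230, were 48 by DESeq2, 2 by voom, 4 with sex as a covariate, 2 in females only, and 0 to 14 on leaving out a library. Map1lc3b kept its log2 fold change under the replicate block (-3.98) but not its call (adjusted p = 0.11). The block is not a paired analysis, because the labels do not say whether the numbers pair mice. Deviations from the group means correlated at r = 0.15, 0.24 and -0.17 between same-numbered libraries, and at -0.5 to 0.53 between others. With so few libraries these values cannot decide whether mice were paired. Signs turned in females only for Pgf (-0.066), Angpt1 (-0.93), Angpt2 (-0.28), Pdgfrb (-0.093) and Rgs5 (-0.67), and without a filter for Rgs5 (-0.0049). On leaving out each library Angpt1 ran from -0.64 to 0.97, Angpt2 from -0.13 to 0.52 and Rgs5 from -0.33 to 0.46. Dividing by summed RPE markers moved the median log2 difference of all genes tested from 0.01 to 1.00, raised members by 0.62 to 1.09 and turned Cspg4 to 0.28. The causes of these changes were not tested. Few counts limit Aplnr.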

Other observations

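The ratio of Vwf to Pecam1 was lowest in the male library of each genotype, as seen after the values were known. It was 4.66 in WT M1 and 4.54 in LC3b-/- M, the only males, and 6.2 to 6.79 in the 5 females. The ratio of Tek to Tie1 was likewise lowest in the males, at 0.574 and 0.608, against 0.621 to 0.819 in females, a much narrower gap. Relative to Pecam1, Cdh5 was also lowest in the males, at 0.583 and 0.73. So were Flt1 (1.37 and 1.49), Flt4 (0.147 and 0.21), Tek (0.37 and 0.488), Icam2 (0.0701 and 0.0744) and Podxl (1.42 and 1.97). WT M1 was lowest of all libraries for Plvap (1.2) and Emcn (0.463) as well, but LC3b-/- M was not, at 1.61 and 0.945. Many other members had WT M1 lowest too, among them Esam (0.259), Cldn5 (0.239), Nos3 (0.412) and Kdr (0.519). All ratios to Pecam1 share that gene, which stood higher in WT M1 (41.1 CPM) than in WT F3 (32.5 CPM), unlike most members. The share of all genes with such an order was not computed. The LC3b-/- male also differed from the LC3b-/- females in the number within its name. With 1 male per genotype, sex cannot be told apart from other traits of these 2 libraries, and none of these ratios was tested.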
